A study of Macaca fascicularis and Macaca mulatta with 24 samples.

Results

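The comparison described here sets the ischemic right cortex against the non-ischemic left cortex in every animal group at once. All 24 arrays of the series entered it, as 12 pairs of 1 right and 1 left array that share a treatment, a sample number and a time. The right minus left difference in log2 level was taken within each pair, and its mean over the 12 pairs was tested gene by gene. The animals were cynomolgus macaques with an occlusion of the right middle cerebral artery, and cortical biopsies of both hemispheres were taken 1 h or 6 h later. Placebo or 2.6 mg/kg TatNR2B9c was infused intravenously 5 min after the occlusion. The 8 groups of 3 arrays were placebo left, placebo right, TatNR2B9c left and TatNR2B9c right, each at 1 h and at 6 h. All groups therefore come from operated animals, and the left cortex, the control here, belongs to an animal with a stroke in the other hemisphere. The labels give neither the age of the animals nor, in words, that a number marks 1 animal, so the pairing rests on the titles. Nor do they say whether the same number at 1 h and 6 h is 1 animal; with such numbers read as 1 animal, which leaves 6 animals, 0 genes were called and 443 had an unadjusted p under 0.05 (limma), against 810 with 12 pairs. Where samples with the same number are not 1 animal, p-values measure only the spread between these samples.

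When the middle cerebral artery is blocked, cortical neurons lose oxygen and glucose, depolarise and release glutamate, which opens NMDA receptors and lets calcium in. Neurons and glia then transcribe immediate early genes such as FOS, heat shock genes such as HSPA1A, and hypoxia genes such as ADM, followed over hours by cytokines. TatNR2B9c is a peptide that enters cells and uncouples NMDA receptors from the scaffold protein PSD-95, which DLG4 encodes, and so from neuronal nitric oxide synthase, NOS1. A contrast of the injured with the uninjured side asks which transcripts differ between them on average over treatments and times. The occlusion was always on the right, so occlusion and hemisphere cannot be told apart here.

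Each array held the sample RNA in Cy5 and a common rhesus macaque reference RNA in Cy3, and a level is the log2 ratio of sample to reference. There was no dye swap, so a dye effect shared by all arrays cancels within a pair but was not tested otherwise. A mean of 74.14% of probes was well above background in Cy5 on the right and 71.57% on the left, a difference of 2.578 ± 13.45 points (SD, n = 12 pairs, higher on the right in 7, two-sided exact sign-flip permutation p = 0.526). The reference channel was weak, with under 25% of probes well above background, on 3 arrays, all placebo at 1 h: left number 1, left number 3 and right number 3. Treatment, and time within placebo, coincided with scanning campaigns, and the 3 placebo 6 h pairs had their arrays on different slides. In numbers 1 and 3 of these the right and left arrays were also scanned on different days. In the 6 TatNR2B9c pairs the left array sat at odd and the right at even slide positions, and in the placebo 1 h pairs the order was the reverse.

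In some pairs, injury genes went against the side in the labels. The level of HSPA1A, the inducible HSP70 chaperone, exceeded 1.5 on 3 of the 24 arrays, and all 3 were labelled left at 6 h: TatNR2B9c number 1 at 3.32, placebo number 2 at 3.08 and TatNR2B9c number 3 at 1.56. The 12 right arrays lay between -0.65 and 0.66. DNAJB1, the HSP40 co-chaperone of HSP70, read 3.1, 2.03 and 1.26 on the same 3 left arrays. ADM, the vasodilator peptide adrenomedullin, read 0.88, 0.87 and 1.49 there, against -2.61, -3.00 and -1.46 on the right arrays of those pairs. The cause of these values was not tested, and all 12 pairs were kept with the sides the labels give.

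No gene passed the test of right against left over the 12 pairs. Of 15770 genes tested, 0 (0%) had an adjusted p under 0.05 by limma with Benjamini-Hochberg adjustment, and the smallest adjusted p was 0.814. At an unadjusted p under 0.05 there were 810 genes, 5.14% of those tested, of which 270 were higher and 540 lower on the right. An exact sign-flip permutation test, whose smallest possible p is 0.000488, also called 0 of 15729 genes, with 838 at an unadjusted p under 0.05 and a smallest adjusted p of 0.846. Means were as often above 0 (7874 genes) as below (7896 genes), with a median of -0.0003. Loess normalisation centres the log ratios of each array near 0, so this even split was largely set by the processing. The split of the unadjusted genes depended on how the ratios were made: it was 595 higher and 609 lower with Agilent's processed signals, 681 and 456 with the authors' deposited ratios, and 456 and 105 with Cy5 alone.

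The number of pairs and their spread limited the precision. The 95% interval of the mean had a median half-width of 0.23, and it lay within 2-fold in both directions for 96.0% of genes and within 1.5-fold for 83.4%. The differences of a single pair had an SD over genes of 0.277 in placebo number 2 at 1 h and of 0.977 in placebo number 1 at 1 h, the narrowest and the widest pair. The share of genes at least 2-fold apart ran from 0.647% in TatNR2B9c number 2 at 6 h to 17.6% in TatNR2B9c number 1 at 6 h. No profile was common to all pairs: across genes, which are not independent and come from the same arrays, the 66 correlations between pairs ran from -0.64 (placebo numbers 1 and 3 at 1 h) to 0.58 (placebo number 1 and TatNR2B9c number 2, both at 1 h), with a median of 0.02. Of these, 8 were above 0.3 and 6 below -0.3. Most of those above 0.3 lay among placebo number 1 at 1 h, TatNR2B9c numbers 1 and 2 at 1 h and TatNR2B9c number 1 at 6 h (0.33 to 0.58).

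**Figure D1:**
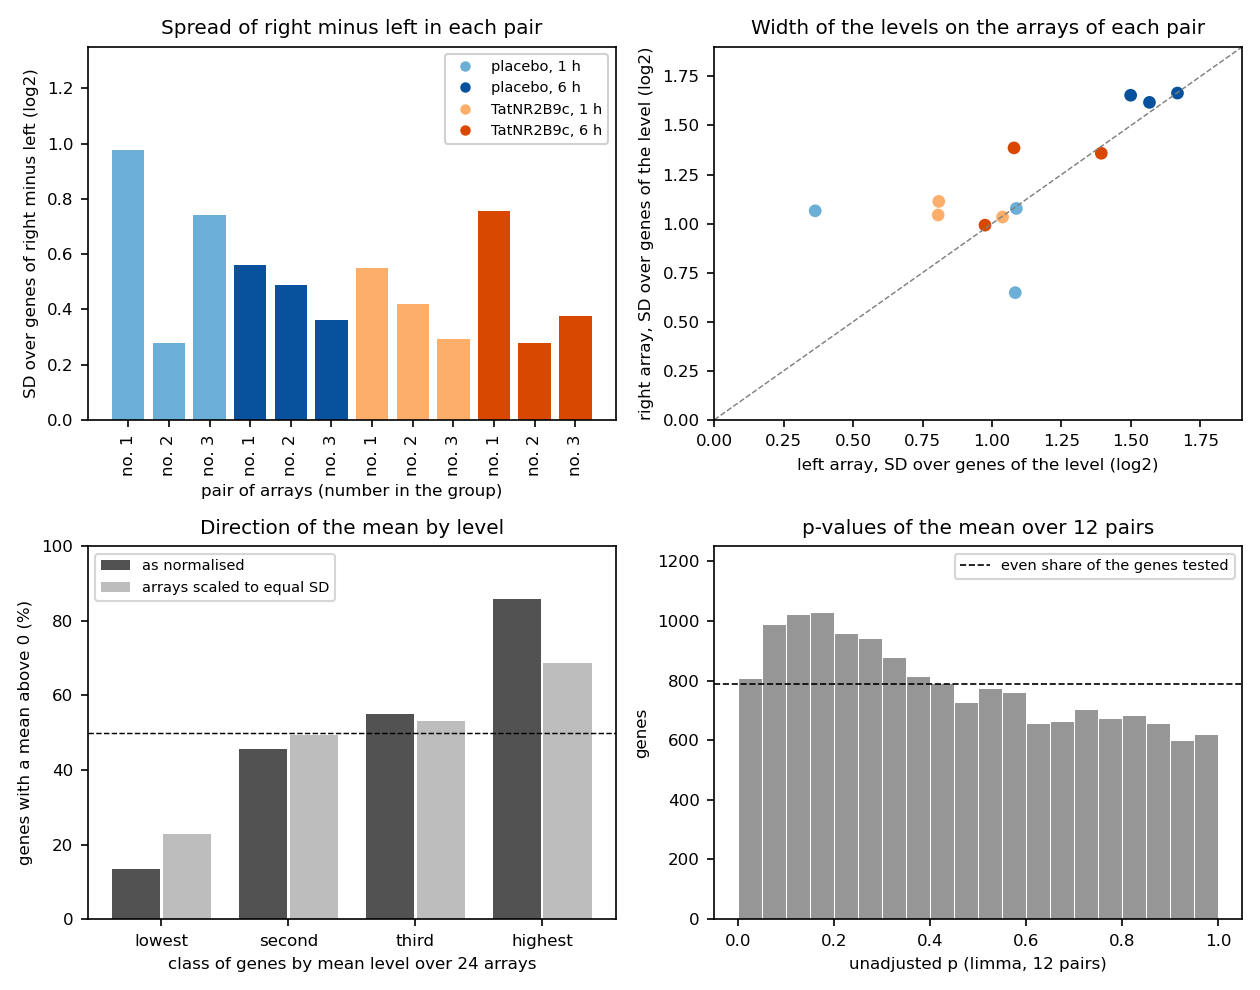
Upper left, SD over genes of right minus left (log2) in each of the 12 pairs; upper right, SD over genes of the level on the left (x) and right (y) array of each pair, with the dashed line marking equal SDs; lower left, percent of genes with a mean above 0 in 4 equal classes of level; lower right, genes per bin of unadjusted p, with the dashed line at an even share. Pair spreads run from 0.277 to 0.977, genes above 0 go from 13.5% in the lowest class of level to 85.8% in the highest, and the first bin of p holds 810 genes.

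The mean difference followed the level of the gene. With the genes divided into 4 equal classes by mean level, the lowest class held 3943, of which 13.5% had a mean above 0, with a median of -0.17. Of the 3943 in the highest class, 85.8% were above 0, with a median of 0.12. Of the unadjusted genes, 444 of those lower on the right lay in the lowest class and 187 of those higher lay in the highest. Across all genes the mean difference and the mean level had r = 0.78, as a description, since the genes share arrays and reference. In single pairs the r of the difference with the mean level ran from -0.61 (placebo number 3 at 1 h) to 0.89 (placebo number 1 at 1 h). It was 0.57 and 0.63 in TatNR2B9c numbers 1 and 2 at 1 h and 0.52 in TatNR2B9c number 1 at 6 h. These are the pairs that correlated with placebo number 1 at 1 h and with each other. The part of the level in those correlations was not tested.

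The width of the arrays was compared as well. The SD over genes of the level averaged 1.22 on right and 1.11 on left arrays, a difference of 0.107 ± 0.272 (SD, n = 12), wider on the right in 7 pairs (two-sided exact sign-flip permutation p = 0.206). The gap was largest in placebo number 1 at 1 h, with 1.07 on the right and 0.36 on the left, and it was the other way round in placebo number 3 at 1 h, with 0.65 and 1.08. These pairs include the 3 arrays with the weak reference. With all arrays scaled to an equal SD, an alternative chosen after seeing the data, r across genes was 0.48, 22.9% of the lowest and 68.6% of the highest class were above 0, and 409 genes had an unadjusted p under 0.05, with 0 called. Values under this scaling are given beside the 20 genes with the smallest p and beside lists where they differ in sign or clearly in size. For the 20 genes, values with arrays at equal median absolute deviation (MAD), also chosen after seeing the data, are given too.

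The 10 named genes with the smallest p among those higher on the right did not pass the test. The probes of 3 of them are printed because each stands for a role described next: matrix, axon and ion channel. The first 30 of the 60 bases are given 5′ to 3′, with rhesus build rheMac2 coordinates of the whole probe and no base marked; the probes were designed on rhesus sequence while the animals were cynomolgus, and whether they lie in a coding exon or a UTR was not analysed here.
EDIL3, chr6:80138049-80138108, minus strand: gggttgactttctctttctgaatgacttca
CNTN2, chr1:165339871-165339930, minus strand: tgagagaaacaaaatgggtcagatagcttt
KCNS1, chr10:19345124-19345183, plus strand: atctggcctgagcccactgtgaggctgttt

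EDIL3, a secreted matrix protein that binds integrins, had the smallest p. Its level ran from 1.01 to 3.14 on the right with a median of 2.42, and from 0.63 to 2.65 on the left with a median of 1.76. The ranges overlapped, but the right array was above the left in 11 of 12 pairs. The mean difference was 0.63 (SE 0.147, 95% interval 0.31 to 0.94, unadjusted p = 0.000826, adjusted p = 0.814 by limma), and 0.37 with arrays at equal SD. At equal MAD it was 0.17. Its 3 probes gave means from 0.19 to 0.63, and leaving out 1 pair gave 0.54 to 0.70.

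CNTN2, the axonal adhesion molecule that anchors potassium channels beside nodes of Ranvier, ran from 0.30 to 3.44 on the right (median 1.89) and from -0.75 to 3.15 on the left (median 1.21). The right array was above the left in 10 pairs, by a mean of 0.54 (SE 0.161, adjusted p = 0.814 by limma; 0.46 at equal SD). KCNS1, a modifier subunit of potassium channels, had medians of 2.49 on the right and 1.74 on the left and was above in 9 pairs, with a mean of 0.62 (0.45 at equal SD). CUTL1, the transcription factor now called CUX1 that marks upper cortical layers, had a mean of 0.59 (0.52 at equal SD), from left levels between -1.56 and 0.84 and right levels between 0.35 and 1.60. In all 4 genes the right and left ranges overlapped. At equal MAD CNTN2 had 0.45, KCNS1 0.38 and CUTL1 0.54.

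The other 6 genes with the smallest p among those higher on the right had means between 0.28 and 0.46. They were CACNA1G, a T-type calcium channel (0.46, above 0 in 9 pairs), BM88, a neuronal protein now called CEND1 (0.38, 10 pairs), LUZP1, a leucine zipper protein (0.33, 9 pairs), BCAT1, a branched-chain aminotransferase (0.30, 10 pairs), FGF9, a growth factor of neurons and glia (0.29, 10 pairs), and ASTN2, a neuronal membrane protein of migration (0.28, 11 pairs). At equal SD the means were 0.32 for CACNA1G, 0.22 for BM88, 0.27 for LUZP1, 0.27 for BCAT1, 0.18 for FGF9 and 0.19 for ASTN2. At equal MAD they were 0.24, 0.12, 0.22, 0.25, 0.09 and 0.12 in the same order. With Cy5 alone, CACNA1G and BM88 had 0.16 and 0.14. The 4 probes of CACNA1G gave means from -0.06 to 0.46. All 10 genes kept a mean above 0 under every scaling tried, and for all 10 the adjusted p was 0.814 (limma).

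**Figure D2:**
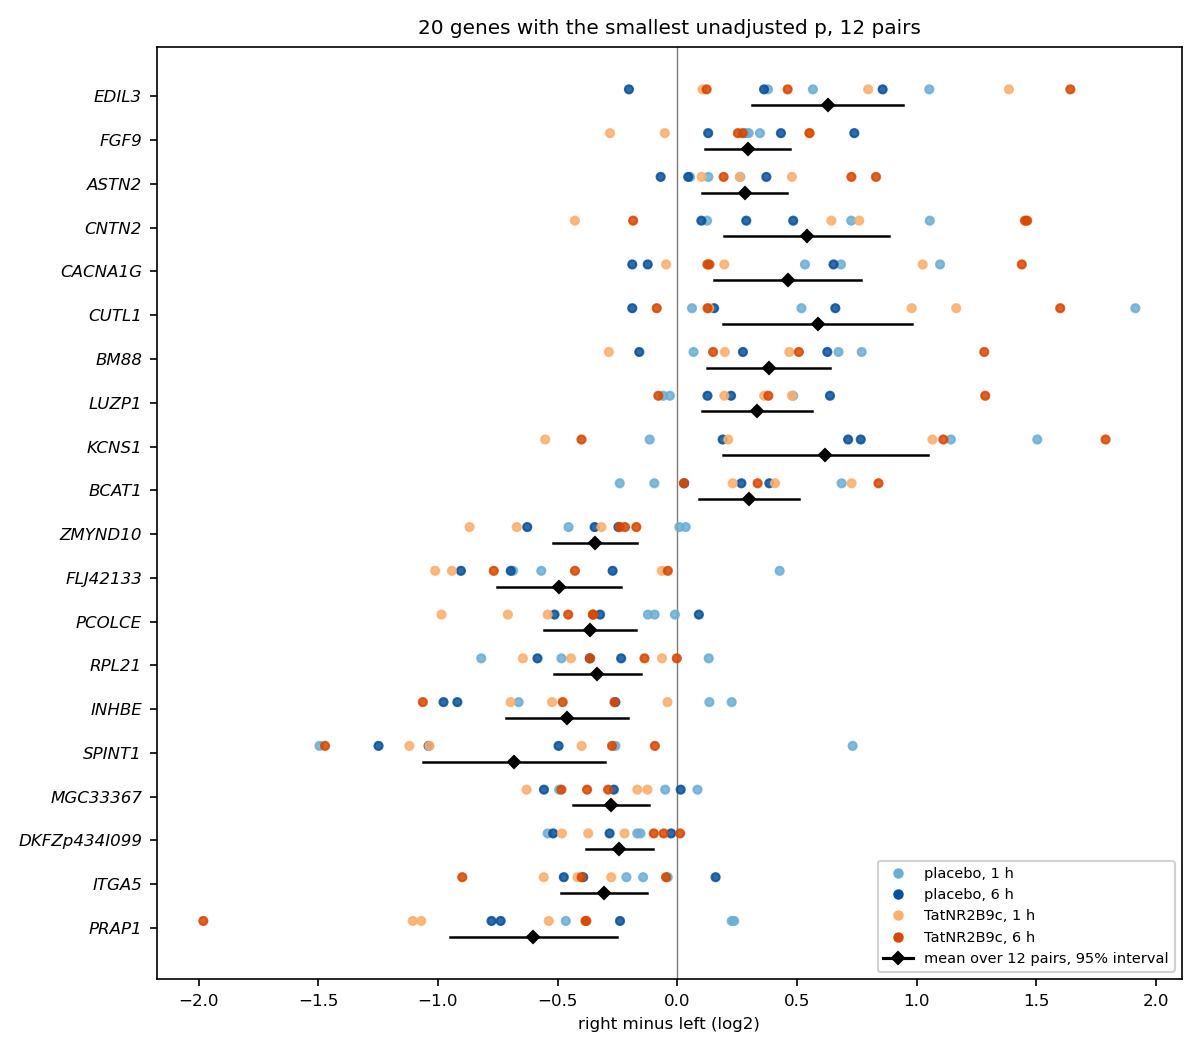
Right minus left (log2) in each of the 12 pairs, coloured by group, for the 10 genes with the smallest p in each direction; black marks are means with 95% intervals. Means run from -0.68 (SPINT1) to 0.63 (EDIL3), and each gene has at least 1 pair on the other side of 0.

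The 10 genes with the smallest p among those lower on the right all had median levels below 0 on both sides, and none passed the test. The probes of SPINT1, which had the lowest mean of the 10, and of a collagen-processing factor and a ribosomal protein are printed in the same form, since values for collagen and ribosomal genes follow in the lists.
SPINT1, chr7:19248636-19248695, plus strand: cacccccagggttctccaacatcacagtcc
PCOLCE, chr3:47790566-47790625, plus strand: ccgtccttcctccagagagctttgtggttc
RPL21, chr17:7008843-7008902, plus strand: ctttgtgagaaccaatgggaaggagcctga

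SPINT1, an epithelial inhibitor of serine proteases, had the lowest mean of the 10 named. Its level ran from -4.03 to 0.01 on the right (median -2.72) and from -3.51 to 0.05 on the left (median -1.92). It was below 0 in all but 1 pair, with a mean of -0.68 (SE 0.177, unadjusted p = 0.00185, adjusted p = 0.814 by limma; -0.45 at equal SD). PCOLCE, an enhancer of procollagen processing, had medians of -1.39 on the right and -0.84 on the left and a mean of -0.36 (-0.27 at equal SD). RPL21, a protein of the large ribosomal subunit, had medians of -0.65 and -0.16 and a mean of -0.33 (-0.34 at equal SD); processed copies of ribosomal genes are common, so its probe may read more than 1 locus. The right and left ranges overlapped in all 3 genes. At equal MAD the 3 means were -0.13, -0.15 and -0.49. With Cy5 alone the 3 means were -0.15, -0.19 and -0.07, and the common reference, Cy3 alone, read 0.17, 0.08 and 0.20 higher on the right.

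The other 7 had means from -0.60 to -0.24. PRAP1, an acidic epithelial protein (-0.60), was well above background on only 12 of 24 arrays, as was MGC33367 (-0.28). INHBE, an inhibin subunit, had a mean of -0.46, ITGA5, the alpha chain of the fibronectin receptor, of -0.31, and FLJ42133, a gene with no name here, of -0.50. ZMYND10, an assembly factor of ciliary dynein, had a mean of -0.34, and DKFZp434I099 of -0.24. With Cy5 alone, ZMYND10, MGC33367 and DKFZp434I099 turned to 0.12, 0.04 and 0.09. The means of the other 7 of the 10 were below 0 under every scaling tried, but with Cy5 alone PRAP1 had only -0.04, FLJ42133 -0.06, INHBE -0.26 and ITGA5 -0.23. At equal SD, PRAP1 had -0.39, FLJ42133 -0.34, INHBE -0.35, ITGA5 -0.27, ZMYND10 -0.23, MGC33367 -0.21 and DKFZp434I099 -0.23. At equal MAD they had -0.18, -0.20, -0.27, -0.22, -0.13, -0.21 and -0.22 in that order. The part of the reference channel in these values was not tested.

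Size and sign pointed to further genes, chosen after their values were seen. The means of 3 genes were at least 1 in size: ALB, serum albumin, at -1.07 (95% interval -2.07 to -0.07), C9, a complement component, at -1.06 (-2.22 to 0.10), and the unnamed transcript XM_001095666 at -1.02. ALB levels were low throughout, from -7.18 to -4.64 on the right and from -6.69 to -1.60 on the left. Its left maximum stood apart, and without placebo number 1 at 1 h, whose left array had a weak reference, its mean was -0.71. With Cy5 alone ALB had -0.41, C9 -0.40 and XM_001095666 -0.77. At equal SD the 3 means were -0.64, -0.62 and -0.77, and at equal MAD -0.38, -0.38 and -0.41.

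The sign was the same in all 12 pairs for 4 of the 15729 genes with all pairs measured. Random signs would give this in a share of 0.000488 of genes, and the count was not above that share. LIN7C, a scaffold protein of synapses and junctions, was above 0 in every pair with a mean of 0.21, and PKD2, a calcium-permeable channel, with a mean of 0.19. DKFZP564J157 (-0.46) and the transcript DR770752 (-0.40) were below 0 in every pair. LIN7C was well above background on only 9 of 24 arrays. Its lowest pair was at 0.0001, and the lowest pair of PKD2 at 0.0009. Of 15770 genes, at least 11 pairs were above 0 for 32 and below 0 for 61, and these counts were not tested against chance.

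None of the injury genes fixed as a panel passed the test of the mean, and several were among the most variable genes measured. FOS, the immediate early transcription factor, ran from -3.13 to 1.85 on the right (median -0.28) and from -2.98 to 2.94 on the left (median -0.67). Its mean was -0.05, with a 95% interval from -1.47 to 1.37, while its mean size irrespective of sign was 2.02. The SD over pairs was 2.54, the fifth largest of all genes, against a median SD of 0.382. The mean of FOS had no stable sign: it was 0.08 with Cy5 alone and 0.22 with pairs scaled to equal spread, -0.33 without placebo number 3 at 6 h and 0.44 without placebo number 2 at 6 h.

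Single pairs lay far on either side of this mean. The right array was higher by 3.03 in placebo number 3 at 6 h, by 2.61 in TatNR2B9c number 2 at 6 h, and by 2.62, 1.22 and 2.30 in TatNR2B9c numbers 1 to 3 at 1 h. It was lower in placebo number 2 at 6 h (-5.42), placebo number 1 at 6 h (-1.29), TatNR2B9c numbers 1 (-1.57) and 3 (-2.16) at 6 h, and placebo number 1 at 1 h (-1.74). FOS was thus above 0 in all 3 TatNR2B9c pairs at 1 h and of both signs in each 6 h group.

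**Figure D3:**
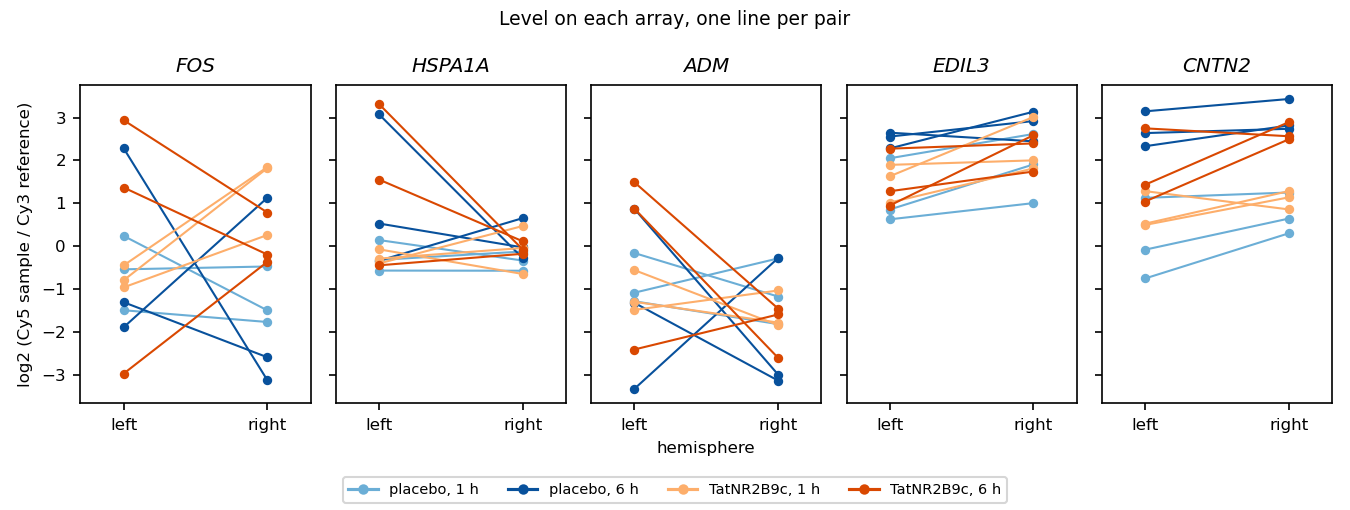
Level (log2 of sample over reference) on the left and right array of each pair, 1 line per pair, coloured by group, for FOS, HSPA1A, ADM, EDIL3 and CNTN2. HSPA1A exceeds 1.5 only on 3 left arrays at 6 h, lines for FOS and ADM cross in both directions, and EDIL3 goes up from left to right in 11 of 12 pairs.

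The means of the heat shock genes HSPA1A and DNAJB1 were below 0 and did not pass the test. HSPA1A had medians of -0.10 on the right and -0.18 on the left, so its mean of -0.60 (95% interval -1.42 to 0.22) came with the 3 high left arrays. Without TatNR2B9c number 1 at 6 h the mean was -0.35. A near-identical neighbouring copy of HSPA1A exists, and the probe may read both. DNAJB1 had a mean of -0.51 (-1.08 to 0.06) and HMOX1, heme oxygenase 1, of -0.49 (-1.12 to 0.15). Without TatNR2B9c number 1 at 6 h DNAJB1 had -0.29, and without TatNR2B9c number 3 at 6 h HMOX1 had -0.28. ADM had a mean of -0.86 (-1.98 to 0.26), which was -0.59 without placebo number 2 at 6 h and -1.22 without placebo number 3 at 6 h.

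The other transcription factors and cytokines of the panel lay closer to 0. ATF3, a stress transcription factor, had a mean of -0.47 (-1.28 to 0.34) with an SD over pairs of 1.45, and -0.30 without TatNR2B9c number 1 at 6 h. NR4A1, an immediate early nuclear receptor, had -0.09 and an SD of 1.42, with 0.01 when pairs were scaled to equal spread. PTGS2, the inducible prostaglandin synthase, had 0.25 with an SD of 1.38, and the left array ranged up to 4.88. IL6, an injury cytokine, had 0.30 with an SD of 1.84 and was -0.30 with Cy5 alone. EGR1 and ARC, activity-regulated genes of neurons, had 0.16 and 0.22, above 0 under every scaling tried.

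DUSP1, a phosphatase that shuts off stress kinases, had a mean of -0.05, GADD45B, a stress sensor, of -0.04, and JUNB and FOSB, both partners in the AP-1 factor, of -0.11 and -0.04. Each of these 4 turned sign under at least 2 of 8 scalings, among them equal SD for DUSP1 (0.05), GADD45B (0.04) and JUNB (0.22) and the authors' deposited ratios for FOSB (0.19). CCL2, CXCL8 and VEGFA, also in the panel, were not analysed here.

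In some of the 6 h pairs nearly all injury genes lay on one side of 0. Of the 15 injury-response genes measured, 14 were above 0 in placebo number 3 at 6 h, with a median of 1.74, and 12 in TatNR2B9c number 2 at 6 h, with a median of 0.65. In contrast, 1 was above 0 in placebo number 2 at 6 h (median -2.28) and 0 in TatNR2B9c number 3 at 6 h (median -1.72). Placebo number 1 and TatNR2B9c number 1 at 6 h had 4 and 6 above 0, with medians of -0.56 and -0.73. At 1 h the counts were 7, 6 and 11 under placebo and 8, 11 and 12 under TatNR2B9c, with medians between -0.03 and 0.45. The highest and the lowest pair medians were thus both of 6 h pairs, 4 of which had a median below 0. The 6 h group means of HSPA1A were -0.97 under placebo and -1.52 under TatNR2B9c, those of ADM -0.88 and -1.87 and those of ATF3 -0.62 and -1.07, against 1 h means from -0.44 to 0.18 for these 3 genes.

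**Figure D4:**
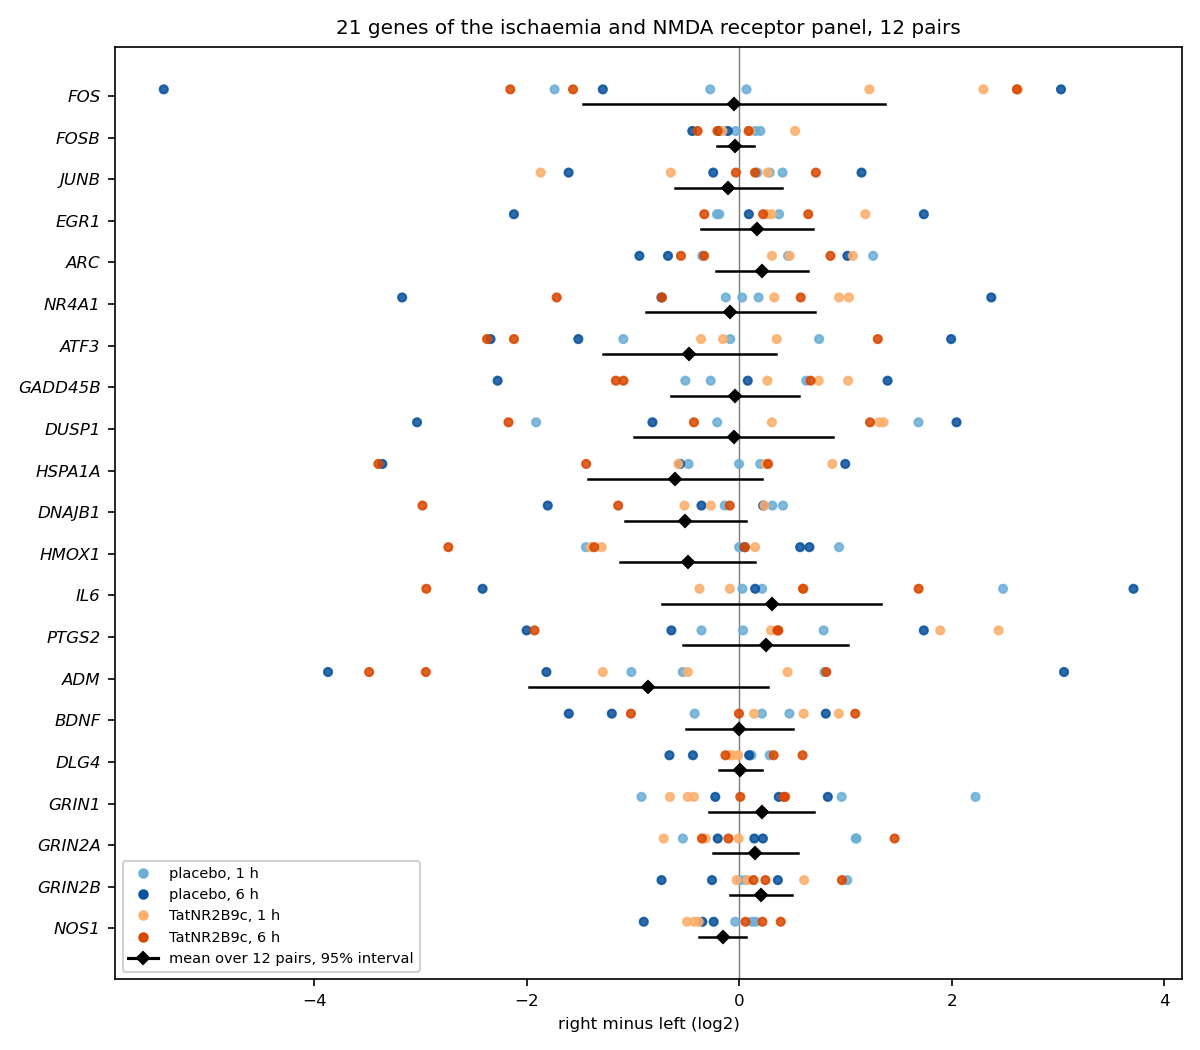
Right minus left (log2) of the 21 measured panel genes in each of the 12 pairs, coloured by group; black marks are means with 95% intervals. Every interval includes 0, and FOS, with an SD of 2.54, spreads on both sides of it.

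Genes of the receptor complex that TatNR2B9c targets did not pass the test in either direction. DLG4 ran from -0.07 to 2.13 on the right (median 0.67) and from -0.17 to 2.51 on the left (median 0.62). Its mean was 0.01 with a 95% interval from -0.20 to 0.22, below 0 with the processed signals (-0.18), with the authors' deposited ratios (-0.17) and, at -0.004, with equal SD. NOS1 had a mean of -0.16 (-0.38 to 0.07), which was 0.07 with Cy5 alone and -0.09 without placebo number 1 at 6 h. The intervals of both genes lay within 1.5-fold of no difference.

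GRIN1, the obligatory NMDA receptor subunit, had a mean of 0.21 (-0.28 to 0.70), which was -0.02 with arrays scaled to equal median absolute deviation (MAD) and 0.03 without placebo number 1 at 1 h. GRIN2A, a subunit of mature synapses, had 0.15 (-0.25 to 0.55), and -0.01, -0.19 and -0.56 with Cy5 alone, equal SD and equal MAD; it was 0.03 without TatNR2B9c number 1 at 6 h. GRIN2B, the subunit whose tail the peptide copies, had 0.20 (-0.08 to 0.49) and was above 0 in 9 pairs and under every scaling tried, with 0.13 without placebo number 3 at 1 h. BDNF, a neurotrophin induced by activity, had 0.001 (-0.50 to 0.50), and 6 of 8 scalings put it below 0. Of the 31 measured members of the NMDA receptor and PSD-95 list, 0 passed in either direction and 22 were above 0, with a median of 0.14 that was -0.02 at equal MAD and 0.04 without TatNR2B9c number 1 at 6 h.

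Among the cell type lists, glial and neuronal markers were mostly above 0 and those of blood, meninges and microglia mostly below. Of the 26 lists, 0 members passed the test. The counts above 0 stand beside the trend with level: 85.8% of all genes in the highest class of level were above 0, and 13.5% in the lowest. The lists were not matched by level, so the part of this trend in them was not tested. Oligodendrocyte markers had the highest median, 0.31, against -0.0003 over all genes. Of the 25 members, 22 were above 0 (7874 of 15770 over all genes). At an unadjusted p under 0.05 by limma, 5 were higher on the right (270 of 15770 over all genes). In 8 of 12 pairs the list median was above 0. The median was 0.30 at equal SD and 0.46 with Cy5 alone, and -0.05 within the placebo 6 h arrays. MAG, a myelin-axon adhesion protein, had the largest mean of all genes, 0.83, above 0 in 10 pairs, and MOBP (0.58), MAL (0.54), MOG (0.48), CNP (0.38) and MBP (0.27), proteins of the myelin sheath, were on the same side. ASPA (-0.30), TF (-0.15) and GJB1 (-0.13) were on the other.

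The oligodendrocyte median varied with the pair from -0.41 to 1.41. By group, the pair medians averaged 0.15 ± 0.13 under placebo at 1 h, -0.06 ± 0.42 under placebo at 6 h, 0.43 ± 0.52 under TatNR2B9c at 1 h and 0.71 ± 0.88 under TatNR2B9c at 6 h (SD, n = 3 pairs each). In a biopsy, more cells of a type and more RNA per cell cannot be told apart, and the share of white matter in each biopsy is not given in the labels.

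Astrocyte markers had a median of 0.21 (20 of 24 above 0; 0.10 at equal SD), the one list whose sign held under all alternatives run, with AQP4, the water channel of end feet, at 0.42 and GFAP at 0.30. The astrocyte median was 0.09 without placebo number 1 at 6 h and 0.02 at equal MAD. Neuron markers had a median of 0.15 with 32 of 38 above 0, led by NEFH, the heavy neurofilament, at 0.73. That median was -0.03 at equal SD and -0.35 at equal MAD, so the direction of the neuronal list turned with the scaling, and it was 0.04 without placebo number 1 at 1 h. Cortical layer markers had 0.13 (16 of 23 above 0) and voltage-gated ion channels 0.13 (41 of 50 above 0), both above 0 under every scaling, though each was 0.05 without TatNR2B9c number 1 at 6 h.

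Transmitter receptor lists were on the same side in part of the scalings. The AMPA, kainate and metabotropic glutamate receptor list had 0.18, with 15 of 19 above 0, and -0.01 with Cy5 alone and 0.11 without placebo number 3 at 1 h. The GABA receptor and interneuron list had 0.21 with 20 of 25 above 0, and -0.01 with Cy5 alone, -0.03 at equal MAD and 0.09 without TatNR2B9c number 1 at 1 h. Pair medians of the neuron list ran from -0.80 to 1.45.

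**Figure D5:**
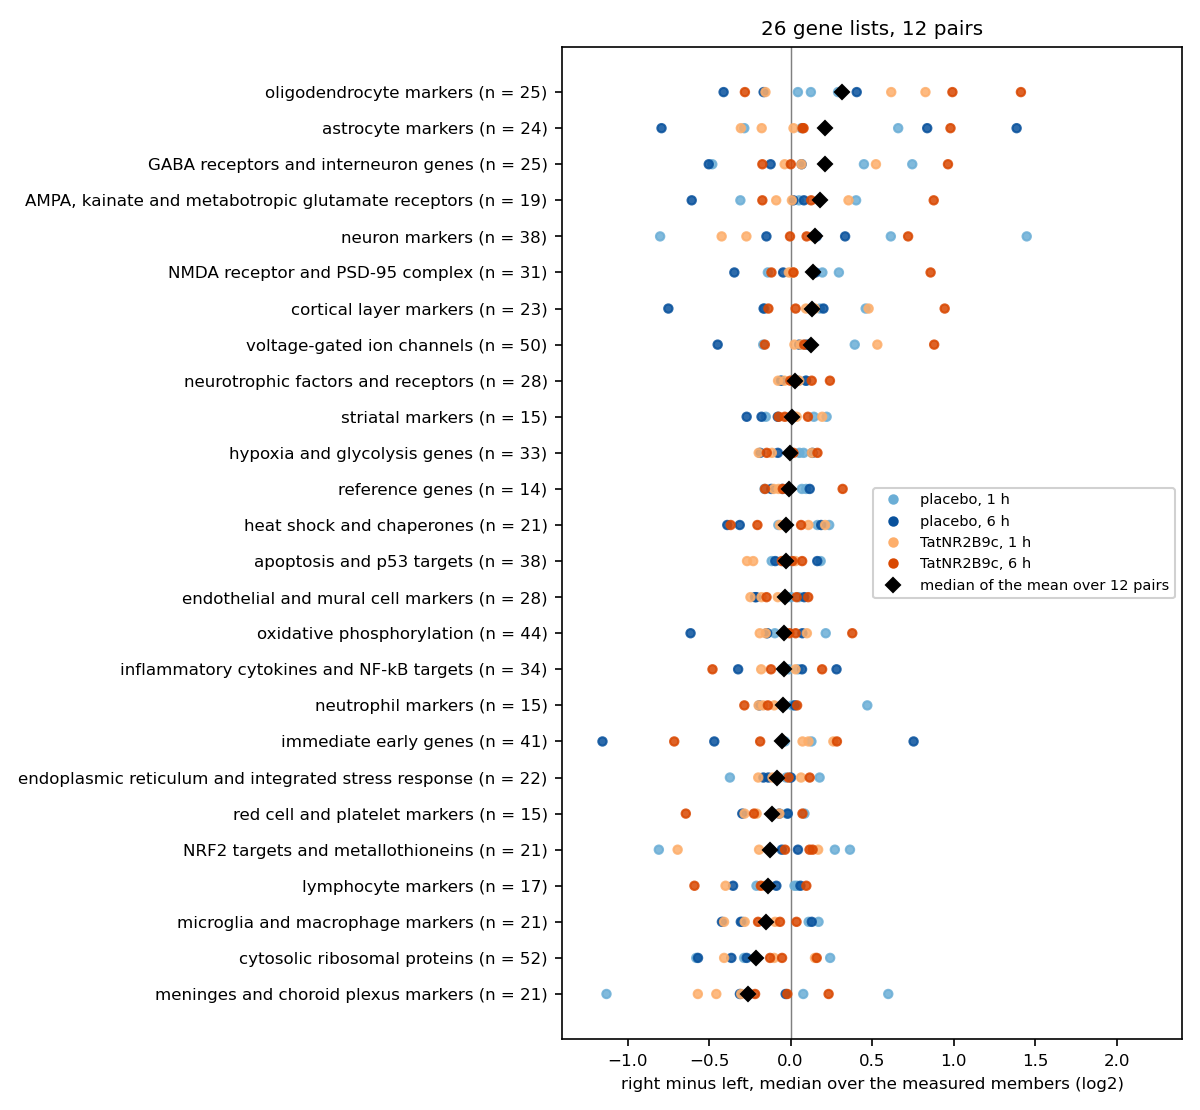
Median right minus left (log2) over the measured members of each of 26 gene lists, in each of the 12 pairs, coloured by group; black diamonds are medians of the members' means. Diamonds run from -0.26 (meninges and choroid plexus) to 0.31 (oligodendrocytes), and pairs lie on both sides of 0 in every list.

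Below 0 stood first the meninges and choroid plexus, with a median of -0.26, 3 of 21 members above 0 and 4 lower at an unadjusted p under 0.05 (540 of 15770 over all genes). The median was -0.16 without placebo number 1 at 1 h. DCN, a proteoglycan of the meninges, had -0.57, TTR, the choroid plexus carrier of thyroid hormone, -0.54, COL3A1, a fibrillar collagen, -0.40 and FOLR1, a folate receptor, -0.41, while PTGDS, a prostaglandin synthase, had 0.40. Cytosolic ribosomal proteins had a median of -0.21 with 4 of 52 above 0 and 9 lower at an unadjusted p under 0.05 (540 of 15770 over all genes), and all 3 placebo 6 h pairs were below 0. The reference channel moved the other way in these lists: with Cy3 alone, their medians were 0.13 and 0.12, and with Cy5 alone -0.12 and -0.02. The part of the reference channel in the result was not tested.

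Markers of blood and immune cells were slightly below 0. In the lowest class of level 13.5% of all genes were above 0, and these lists were not matched by level. Microglia and macrophage markers had a median of -0.15 (1 of 21 above 0), with LYZ, lysozyme, at -0.81, CD68, a lysosomal protein of phagocytes, at -0.45, and the defining microglial receptors CX3CR1 and P2RY12 each at -0.01. Lymphocyte markers had -0.14 (1 of 17), with the granule protease GZMB at -0.77, red cell and platelet markers -0.11 (1 of 15), with the globin HBB at -0.79, and neutrophil markers -0.05 (4 of 15), with MMP9, a matrix protease, at -0.65 and S100A9 at -0.56. These 4 lists were below 0 under every scaling. Endothelial and mural markers had -0.03 and turned sign with pairs at equal spread and arrays at equal MAD.

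The lists of the injury response were near 0 in the mean. Immediate early genes had a median of -0.05 with 12 of 41 above 0, and pair medians from -1.15 to 0.75. This sign turned without placebo number 2 at 6 h (0.04) or without TatNR2B9c number 3 at 6 h. The median SD of their members over pairs was 0.759, against 0.382 over all genes. By group the pair medians averaged 0.15 ± 0.10 under TatNR2B9c at 1 h, with all 3 pairs above 0, and 0.01 ± 0.10 under placebo at 1 h, -0.29 ± 0.97 under placebo at 6 h and -0.21 ± 0.50 under TatNR2B9c at 6 h.

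Heat shock genes had a median of -0.03 (7 of 21 above 0) and inflammatory genes of -0.04 (13 of 34), with IL1B, a cytokine of early inflammation, at 0.44 and its antagonist IL1RN at -0.70. Hypoxia and glycolysis genes had -0.005 (14 of 33), and apoptosis genes -0.03 (17 of 38), both with a sign that turned in 2 of 8 scalings. Hexokinase HK2 had -0.33, and 0.06 with Cy5 alone, and CA9, a carbonic anhydrase induced by hypoxia, had -0.62. The ER stress list (-0.08), the NRF2 and metallothionein list (-0.12) and oxidative phosphorylation (-0.04) turned sign with Cy5 alone. Neurotrophic factors had 0.03 (16 of 28), striatal markers 0.01 (8 of 15) and the reference genes -0.01 (5 of 14), the last with a sign that turned in 2 scalings. Leaving out a single pair turned the sign of the hypoxia median in 4 of 12 cases, of the reference genes in 3, of the apoptosis and striatal lists in 2 each and of oxidative phosphorylation in 1.

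The member with the smallest p of each list gives the scale of what single members showed, all at an adjusted p of 0.814 or more by limma. Above 0 were GRM3, a metabotropic glutamate receptor (0.47), GRIN2C, an NMDA receptor subunit (0.34), GPC5, a glypican of astrocytes (0.34), PVALB, a calcium buffer of interneurons (0.24), and ADORA2A, an adenosine receptor (0.09). Below 0 were UQCRH, a subunit of respiratory complex III (-0.40), B2M, the light chain of class I molecules (-0.39), CCL5, a chemokine (-0.41), BIK, a pro-apoptotic protein (-0.36), HSPD1, the mitochondrial chaperonin (-0.34), AHSP, a globin chaperone (-0.21), and AIF1, a microglial marker (-0.20). BIK was well above background on only 10 of 24 arrays and ADORA2A on only 7. The 2 probes of AIF1 gave means of -0.20 and -0.04. NOSTRIN, an endothelial regulator of nitric oxide synthase, had -0.57 and the metallothionein MT1G -0.51. KLF6 and ATF4, transcription factors of the immediate early and integrated stress responses, had -0.32 and -0.24, and with Cy5 alone 0.06 and 0.001.

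A pooled mean could hide groups that differ, so the 4 groups of 3 pairs were compared. The F test of equal means called 0 of 15768 genes, with 336 (2.13%) at an unadjusted p under 0.05 and a smallest adjusted p of 1 (limma). TatNR2B9c against placebo called 0 genes, with 488 at an unadjusted p under 0.05 and a smallest adjusted p of 0.932, and 6 h against 1 h called 0, with 285 and 1. The smallest F-test p belonged to KCNJ4, an inward rectifier potassium channel, whose right minus left averaged 1.31 under placebo at 1 h, 0.39 under placebo at 6 h, -0.81 under TatNR2B9c at 1 h and 0.17 under TatNR2B9c at 6 h.

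GNG3, a neuronal G protein subunit, had 1.06, 0.30, -0.32 and 0.10 in that order of groups, and ITPKA, a kinase of inositol trisphosphate, had 1.27, 0.26, -0.50 and 0.01. FCER1G, a receptor chain of myeloid cells, was lowest under TatNR2B9c at 1 h (-0.75), and MCF2L2, an exchange factor, under placebo at 6 h (-0.90). The adjusted p of all 5 was 1. Treatment coincides with the scanning campaign, so the 2 cannot be told apart in these contrasts. Placebo numbers 1 and 3 at 1 h include the arrays with a weak reference.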

How the data were processed

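RNA of 24 cortical biopsies was measured on 2-colour arrays. The deposited scanner files give mean and background intensity per spot in Cy5 and Cy3, and the flag columns (well above background, outlier) are scores per the file headers. The authors' deposited value table holds log10 ratios of Cy5 over Cy3, which differed from the scanner files' by at most 0.005. Images were extracted with Agilent Feature Extraction 10.7.3.1 per the submitters' processing notes, and per the file headers with 9.5.3.1 for placebo at 1 h, 10.5.1.1 for placebo at 6 h and 10.7.3.1 for TatNR2B9c.

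Intensities were background-corrected (normexp, offset 50) and loess-normalised within arrays (limma 3.58.1, R 4.3.3). Of 20217 probes, 17226 were kept, those whose Cy5 signal all 3 arrays of some group measured well above background. A gene was its probe of highest mean intensity, 15770 in all. Names came from the arrays' newest annotation (6637 probes) or only their oldest (10804), and 2776 probes had none. Right minus left per pair was tested by limma (intercept only, eBayes, two-sided, Benjamini-Hochberg over all genes, adjusted p under 0.05) and by an exact sign-flip permutation test. The 4 groups were compared by limma's moderated F test. A gene list is described by its counts and the median of its members' means, with no set test. The scripts were tested on simulated data.

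Genes named are the 10 with a symbol and the smallest p in each direction, a panel of 24 (21 measured), members of 26 lists and the 5 with the smallest F-test p. Others are marked as chosen after their values were seen, and list members beyond the one with the smallest p are examples of that kind. The members and lists were chosen with earlier results of these data known. Same-numbered arrays deviated together (r over 0.1) in 6 of 12 pairs. In the others r was below 0, from -0.71 in placebo number 1 at 1 h to -0.08 in placebo number 3 at 6 h. The right array of placebo number 1 at 1 h had a mean r of 0.51 with the left arrays of the other numbers. Deviations were taken from the mean of the 3 arrays of a group. A negative r with 1 left array therefore tends to bring a positive r with the others, and the 0.51 adds little. The consensus correlation within pairs was 0.05 (limma). The pairing comes from the titles, and whether it matches animals was not tested further. The number of arrays limits the precision.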

Additional observations from a re-analysis of the deposited data

Results flagged for a closer look

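The mean right minus left of several genes had opposite signs in a pair of groups, with all 3 pairs of one group on one side of 0 and all 3 of the other on the other side. All genes named here and all 26 lists were scanned for such cases, between groups that share a treatment or a time. With 3 pairs per group some cases would arise by chance, and these differences were not tested on their own. Placebo and TatNR2B9c arrays were scanned in different campaigns.

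KCNJ4 averaged 1.31 under placebo and -0.81 under TatNR2B9c at 1 h, a difference of -2.12. ITPKA averaged 1.27 and -0.50, a difference of -1.77, and GNG3 1.06 and -0.32, a difference of -1.38. DLG4 averaged 0.17 and -0.06 in the same groups, a difference of -0.22, with TatNR2B9c number 2 at -0.01. Placebo numbers 1 and 3 at 1 h, with KCNJ4 at 1.54 and 1.63, include the arrays with a weak reference. Over 12 pairs the mean of KCNJ4 was 0.26, but -0.20 with Cy5 alone, -0.03 at equal SD and -0.30 at equal MAD. Its 2 probes gave 0.06 and 0.26. The means of GNG3 and ITPKA turned sign in 2 of 8 scalings each. GRIN1 averaged -0.52 under TatNR2B9c at 1 h and 0.29 at 6 h, a difference of 0.81. NOS1 averaged -0.43 and 0.22 in these groups, a difference of 0.66. At 6 h GRIN1 was only 0.008 in TatNR2B9c number 2, and NOS1 0.06 in number 1. At 6 h NOS1 averaged -0.50 under placebo, 0.72 below TatNR2B9c. KCNJ4, GNG3 and ITPKA were picked for the smallest p of the F test, whose adjusted p was 1 for all 3.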

How the results depend on the processing

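None of the 42 alternatives run, 37 planned and 5 chosen after seeing the data, called a gene, by limma or by the exact sign-flip permutation test. The smallest adjusted p in any of them was 0.17, within the placebo 6 h arrays. Genes at an unadjusted p under 0.05 ranged from 110 (within the placebo 1 h arrays) to 1609 (without placebo 1 h replicate 3). Leaving out 1 pair at a time gave 0 genes called each time and between 455 and 1609 at an unadjusted p under 0.05, the lowest without TatNR2B9c 1 h replicate 1. Without the replicate block, which ignores the pairing, 0 genes were called and 600 had an unadjusted p under 0.05, and with the pair as a random block 0 and 689. Other counts at that p were 1204 with processed signals, 1137 with the deposited ratios, 561 with Cy5 alone, 228 with Cy3 alone, 163 with median centring, 409 and 333 with arrays at equal SD and equal MAD, and 262 of 7160 genes well above background on all 24 arrays. Of 1066 list medians, 7 moved by 1 SD or more and 81 turned sign. Of 2998 values of named genes, 41 moved and 206 turned sign. No scaling moved the median of all genes by over 0.1, which was largely set in advance, since most of them centre each array. The spread between 12 pairs limits what could be called: EDIL3, at 0.63 with an unadjusted p of 0.000826, was not called by limma over all genes. The SD of FOS over pairs was 2.54.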
